A study of Mus musculus with 26 samples.

Results

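The comparison described here is that of restraint with home cage control in the second of 2 experiments on mouse bone marrow leukocytes. It rests on 10 of the 26 arrays of the series, which are the 5 arrays titled as restraint and the 5 titled as control in experiment 2. All 10 arrays carry RNA from male SCID mice (CB17/Icr-Prkdcscid) aged 6 to 8 weeks. Both groups carried an earlier graft of human acute lymphoblastic leukemia, whose cells were gated out when leukocytes were sorted from the femoral marrow. The Prkdcscid allele, carried by controls and restrained mice alike, impairs the joining of DNA ends and leaves the mice without mature B and T cells. The control mice stayed in the home cage, the restrained mice were subjected to restraint stress, and neither group of this comparison received propranolol. The labels do not give the length of restraint and do not say that each array is 1 mouse. The SEs and p-values of limma measure the spread between arrays within groups, pooled over all 26 arrays of the series. That spread may in part be technical. RNA was amplified and biotin labelled with NuGEN kits and hybridised to Illumina MouseRef-8 v2.0 beadchips, which read each transcript with bead-bound probes.

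Restraint is a standard model of psychological stress in rodents. It activates the sympathetic nerves, which release noradrenaline in bone marrow, and the adrenal cortex, which releases corticosterone. Noradrenaline acts on leukocytes through β-adrenergic receptors, which raise cyclic AMP, while corticosterone acts through the glucocorticoid receptor, a transcription factor that represses many inflammatory genes. The NF-κB factors are held in the cytoplasm by inhibitor proteins, several of which are themselves NF-κB target genes, and they drive cytokines, adhesion molecules and the surface proteins of activated antigen presenting cells. The circadian clock is a feedback loop in which CLOCK and BMAL1 switch on Period and Cryptochrome genes whose products shut it off again, and its genes also answer to glucocorticoids and cyclic AMP.

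The sorted cells had the profile of marrow rich in granulocytes. Ptprc, which encodes the pan-leukocyte protein CD45, lay between 10.29 and 10.84 on the log2 intensity scale on the 10 arrays, and Mpo, the myeloperoxidase of neutrophil granules, between 10.81 and 11.58. A value near 4.5 on this scale is the background of the arrays. The T cell markers were mixed. Cd3e, a chain of the T cell receptor complex, was detected on 2 of the 10 arrays. Cd3d, another chain of that complex, was detected on every array, between 8.55 and 9.94, and so was Lat, between 5.67 and 8.25. Col1a1, a collagen of stromal and bone cells, was detected on 0 arrays.

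The arrays were not evenly spread over the beadchips. Controls 1 to 3 were on slide 2, at positions 6 to 8, together with arrays of experiment 1. Controls 4 and 5 were at positions 1 and 2 of slide 3, and the 5 restraint arrays at positions 3 to 7 of the same slide. No restraint array of this comparison was on slide 2, so the difference within slide 3, 2 controls against 5 restraint arrays, is given beside the results. On slide 3, position and condition cannot be told apart. Of all probes, 42.5% were detected on control 4 and 42.6% on restraint 4, against 46.4% to 50.0% on the other 8 arrays. Control 4 also had the lowest median correlation with the other arrays, 0.889, where those of the others lay between 0.925 and 0.964. The share detected was 47.6% ± 2.96 (SD, n = 5) in controls and 46.4% ± 2.22 (SD, n = 5) under restraint, and the groups did not differ beyond this spread (difference −1.19 percentage points, exact permutation test, two-sided, p = 0.46, smallest p possible 0.00794). No 2 arrays were identical.

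Restraint raised 1 gene (0.00927%) and lowered 1 gene (0.00927%) at an adjusted p under 0.05, together 0.0185% of the 10792 genes tested. The gene that rose was Cd83 and the gene that fell was Ppm1k. At an unadjusted p under 0.05, 394 genes were higher (3.65%) and 510 lower (4.73%), and at an adjusted p under 0.10 there were 8 genes (0.0741%). The 5 restraint arrays lay wholly above the 5 controls for 83 genes (0.769%) and wholly below them for 96 (0.89%). Over all genes the median log2 difference was −0.01, with 49.1% above 0 and 50.9% below. The p-values come from limma's moderated test in a fit of all 26 arrays, adjusted by Benjamini-Hochberg over all probes.

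**Figure D1:**
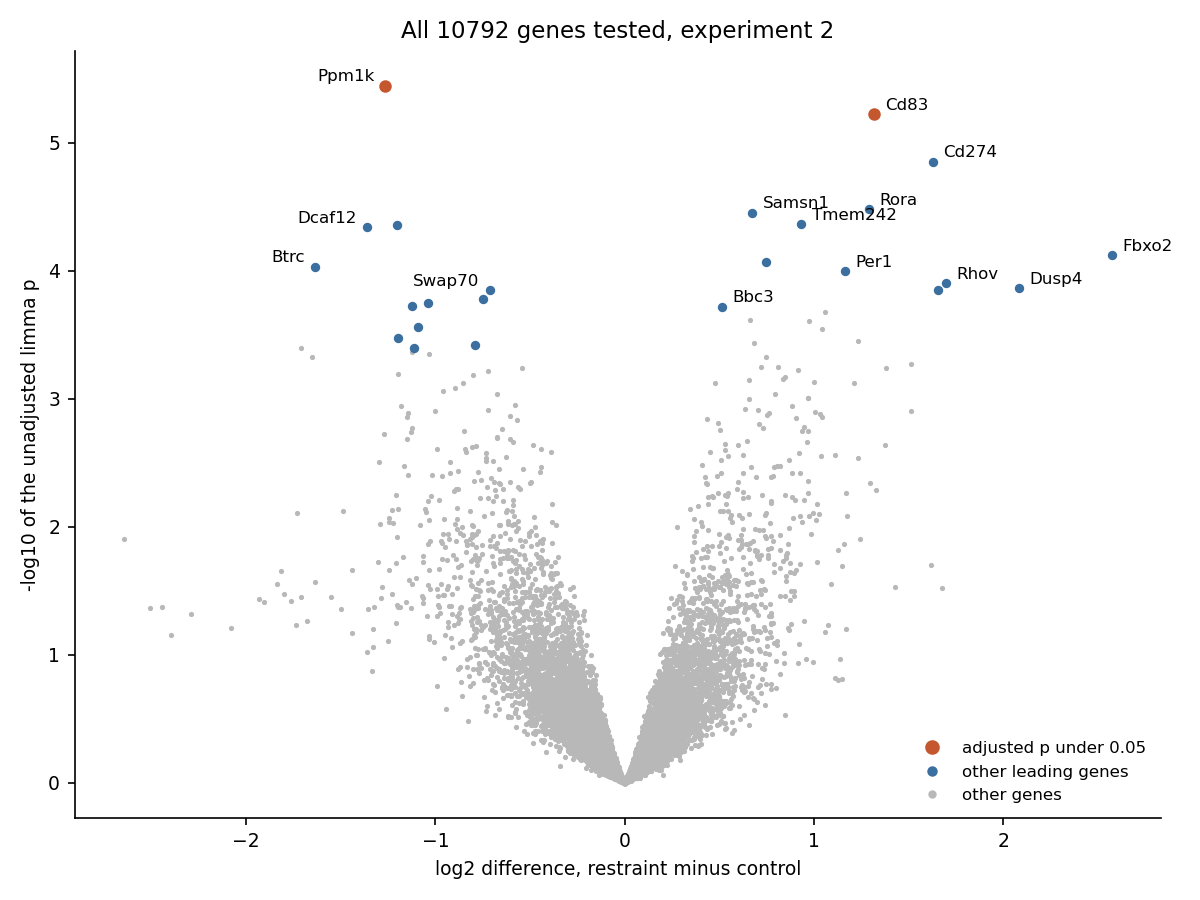
Each point is 1 of the 10792 genes; the x axis is the log2 difference between the 5 restraint and 5 control arrays and the y axis the −log10 of the unadjusted limma p. Cd83 on the right and Ppm1k on the left, in orange, are the 2 genes with an adjusted p under 0.05, and the other leading genes of each direction are in blue.

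Cd83 (probe ILMN_2865016, chromosome 13) encodes a surface protein of mature dendritic cells and activated lymphocytes that stabilises MHC class II and CD86 on the cell surface. Its log2 intensity on controls 1 to 5 was 6.33, 6.11, 6.82, 7.23 and 7.16. On restraint arrays 1 to 5 it was 8.29, 7.94, 8.39, 8.10 and 7.52. The lowest restraint array was thus above the highest control, and the 2 controls on slide 3 were higher than the 3 on slide 2. Cd83 rose by 1.32 ± 0.23 (SE) on the log2 scale, or 2.50-fold, with an adjusted p of 0.0448 (limma; 95% interval 0.85 to 1.79). In a bulk sample such as this, more cells that express a gene and more RNA per cell cannot be told apart. The difference was 0.85 within slide 3 and 1.45 without control 4 (adjusted p = 0.0128), and 0.77 on the authors' normalized values (adjusted p = 0.0164, limma). The call ended with slide as a term (adjusted p = 0.282), when the 10 arrays were fitted alone (adjusted p = 0.286), without any 1 of controls 1, 2 and 3 (adjusted p from 0.126 to 0.213) and without any 1 of restraint arrays 1 to 4 (from 0.0512 to 0.0928).

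Ppm1k (probe ILMN_2923615, chromosome 6) encodes the mitochondrial phosphatase that activates the branched-chain α-keto acid dehydrogenase complex, the committed step in breaking down leucine, isoleucine and valine. The 5 controls read 6.47, 6.39, 6.38, 5.92 and 6.51. The 5 restraint arrays read 5.24, 4.96, 4.77, 5.76 and 4.62, all below the lowest control, which was control 4. The probe was detected on 5 of 5 controls and on 2 of 5 restraint arrays, so several restraint values are close to the background. Ppm1k fell by 1.26 ± 0.21 (SE) on the log2 scale, or 2.40-fold, with an adjusted p of 0.0448 (limma; 95% interval −1.70 to −0.83). The difference was −1.14 within slide 3 and −1.37 without control 4 (adjusted p = 0.0128). It was smaller, −0.43, on the authors' normalized values (adjusted p = 0.0352, limma) and −0.41 without background correction. The call ended with slide as a term (adjusted p = 0.161), when the 10 arrays were fitted alone (adjusted p = 0.286), without that correction (adjusted p = 0.0659), without any 1 of controls 1, 2, 3 and 5 (adjusted p from 0.0572 to 0.213) and without any 1 of restraint arrays 2, 3 and 5 (from 0.0512 to 0.0928).

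The promoters of Ppm1k, of Per1 and of Rel are shown because Ppm1k was called and because Per1 and Rel belong to the clock and NF-κB lists, whose means lay above every control on every restraint array. Each window runs from 250 bases before to 50 bases after the start of the gene, is written 5′ to 3′ on the gene's strand, and comes from RefSeq on GRCm38.p6. Capitals mark TGACGT, the CRE half-site bound by CREB family factors, in Ppm1k (chr6:57535438-57535737, minus strand); CACGTG, the E-box bound by CLOCK and BMAL1, in Per1 (chr11:69098699-69098998, plus strand); and matches of the NF-κB consensus, which overlap each other, in Rel (chr11:23770920-23771219, minus strand). Cd83 has no entry in the promoter table used here. Per1 has 2 windows in it, and the first that held the E-box is shown.
Ppm1k: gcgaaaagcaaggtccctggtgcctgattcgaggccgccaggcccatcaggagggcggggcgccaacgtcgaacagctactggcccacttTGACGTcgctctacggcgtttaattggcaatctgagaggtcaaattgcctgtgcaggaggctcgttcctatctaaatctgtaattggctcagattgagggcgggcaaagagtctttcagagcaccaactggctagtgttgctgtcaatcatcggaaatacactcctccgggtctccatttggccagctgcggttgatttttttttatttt
Per1: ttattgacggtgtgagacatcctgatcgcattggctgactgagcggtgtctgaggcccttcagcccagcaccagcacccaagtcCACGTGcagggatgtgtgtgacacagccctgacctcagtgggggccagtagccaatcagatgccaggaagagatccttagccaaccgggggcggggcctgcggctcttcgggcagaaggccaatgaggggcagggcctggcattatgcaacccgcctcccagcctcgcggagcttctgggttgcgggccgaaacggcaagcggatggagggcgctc
Rel: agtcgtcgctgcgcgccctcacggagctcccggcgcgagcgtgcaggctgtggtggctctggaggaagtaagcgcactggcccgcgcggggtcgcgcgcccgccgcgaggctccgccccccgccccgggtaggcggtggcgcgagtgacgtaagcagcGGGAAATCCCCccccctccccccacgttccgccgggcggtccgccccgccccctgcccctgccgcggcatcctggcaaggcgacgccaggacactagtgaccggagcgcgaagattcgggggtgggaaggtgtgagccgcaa
Searched on both strands, TGACGT was in 7.51% of all 32851 promoter windows, CACGTG in 7.15% and the NF-κB consensus in 8.46%. Among the clock genes tested, 12 of 15 had a promoter entry, and 5 of their 17 windows (29.4%) held CACGTG. Of the NF-κB genes tested, 16 of 20 had an entry, and 11 of their 24 windows (45.8%) held the NF-κB consensus. For branched-chain amino acid catabolism, the list of Ppm1k, 20 of 24 genes had an entry. Of their 25 windows 2 (8.0%) held TGACGT, close to the share of all windows. These matches describe the sequence and carry no measurement of binding. The clock and NF-κB lists were made of pathway members, targets of these factors among them. Their shares therefore reflect the choice of genes and are no result of this comparison.

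Beyond these 2 genes, the genes with the smallest p-values in each direction are described by value, since none had an adjusted p under 0.05. Cd274, which encodes PD-L1, the ligand by which antigen presenting cells restrain T cells, read 6.51, 6.69, 6.91, 7.70 and 6.53 on the controls. It read 8.28, 8.57, 8.67, 8.64 and 8.32 under restraint, so the groups did not overlap, and control 4 was the control nearest to them. The difference was 1.63 ± 0.30 (SE, adjusted p = 0.0704, limma), 1.38 within slide 3, and 1.84 without control 4 (adjusted p = 0.0128). Dusp4, a nuclear phosphatase that switches off ERK, was at background on the controls, between 4.74 and 4.95, and detected on 1 of them. On the restraint arrays it read 6.70, 6.75, 5.98, 7.17 and 7.99 and was detected on all 5. The difference was 2.08 ± 0.46 (SE, adjusted p = 0.126, limma) and 2.01 within slide 3; another probe of the gene differed by 1.50 and yet another, detected on 1 of the 10 arrays, by 0.18. Hcar2, the receptor of nicotinic acid and β-hydroxybutyrate on neutrophils and macrophages, read 5.59 to 6.82 on the controls and 7.28 to 8.48 under restraint (difference 1.66 ± 0.37 SE, adjusted p = 0.126, limma; 2.25 within slide 3).

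Samsn1, an adaptor that dampens B cell and mast cell signalling, differed by 0.67 ± 0.13 (SE, adjusted p = 0.0855, limma), and its restraint arrays, from 8.56 to 9.09, were all above the controls, from 7.94 to 8.48. Bbc3, which encodes the pro-apoptotic BH3 protein PUMA, was between 10.90 and 11.09 on the controls and between 11.34 and 11.67 under restraint, a difference of 0.51 ± 0.12 (SE, adjusted p = 0.13, limma) that was 0.48 within slide 3. Tmem242, a mitochondrial membrane protein that assists assembly of ATP synthase, differed by 0.93 and Igsf9b, an adhesion molecule known from synapses, by 0.75, with no overlap between the groups for either gene. Rhov, an atypical small GTPase, differed by 1.70, and restraint 4 (7.59) lay below the highest control (7.66). Fbxo2, a ubiquitin ligase subunit that binds glycoproteins, differed by 2.57 ± 0.54 (SE, adjusted p = 0.116, limma). Its values on the controls were 4.94, 4.64, 4.49, 4.64 and 7.21, and under restraint 5.76, 6.64, 9.54, 8.16 and 8.69. Control 5 was the only control on which Fbxo2 was detected, and it was above 2 of the 5 restraint arrays.

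On the lower side, the restraint arrays were wholly below the controls for 9 of the 11 genes that followed Ppm1k (0.89% of all genes). These genes were chosen for a small p in this same comparison, a choice that favours groups without overlap. Btrc, the substrate receptor that sends IκB and β-catenin for degradation, read 6.69, 6.70, 5.83, 7.26 and 5.61 on the controls and 4.55 to 5.24 under restraint, where it was detected on 0 of 5 arrays. It was at least 2.53-fold lower against the detection floor of those arrays (adjusted p = 0.116, limma), while another Btrc probe, detected on 2 arrays, differed by −0.31. Gtf2e1, a subunit of the general transcription factor TFIIE, was 6.66 to 7.18 on the controls and 5.10 to 6.51 under restraint, a difference of −1.20 ± 0.24 (SE, adjusted p = 0.0855, limma). Dcaf12, a receptor of the CUL4 ubiquitin ligase, differed by −1.36 ± 0.27 (SE, adjusted p = 0.0855, limma), with 6.21 to 6.99 on the controls and 4.81 to 6.15 under restraint. It was detected on 2 of 5 restraint arrays. Swap70, a phosphoinositide-dependent exchange factor for Rac in B cells and mast cells, differed by −0.71 by its brightest probe, from 7.86 to 8.18 on the controls and from 6.97 to 7.53 under restraint. The 3 other Swap70 probes differed by −0.73, −0.27 and 0.25. Tubg1, the γ-tubulin that nucleates microtubules at centrosomes, differed by −0.75 and the uncharacterised transcript 9130221H12Rik by −1.12. Mettl21a, a methyltransferase of HSP70 proteins, differed by −1.09 and Slf2, which recruits the SMC5/6 complex to DNA damage, by −1.20. For both, 1 restraint array reached into the range of the controls, and Slf2 was detected on 1 of 5 restraint arrays. Rbpms, an RNA-binding protein, and Zfp420, a zinc finger protein, were detected on all 5 controls and on 0 of 5 restraint arrays, at least 1.53-fold and 1.62-fold lower. Tmem119, known as a marker of microglia and also made by osteoblasts, differed by −0.79 with no overlap and was detected on 1 of 5 restraint arrays. Within slide 3 these 11 differences lay between −1.69 and −0.76.

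**Figure D2:**
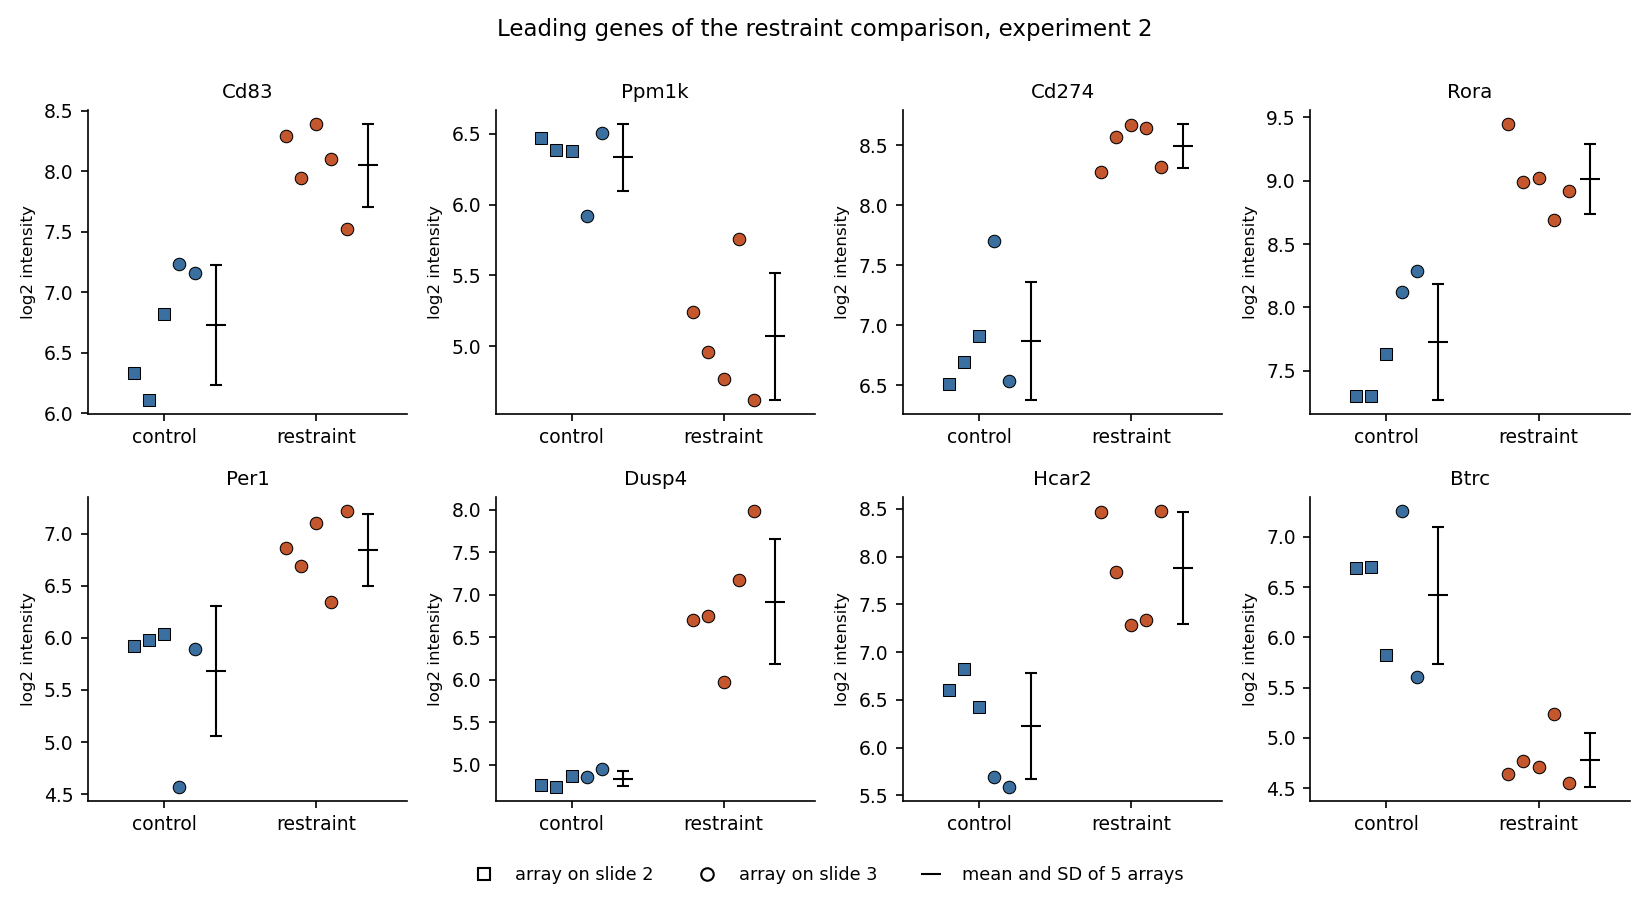
Log2 intensity of 8 leading genes on each of the 10 arrays, with squares for slide 2, circles for slide 3, and the mean and SD of the 5 arrays beside each group. Cd83, Cd274, Rora, Per1, Dusp4 and Hcar2 were higher and Ppm1k and Btrc lower on every restraint array than on any control; the y axes do not start at 0.

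Genes of the circadian clock were higher as a group. Of 15 clock genes tested, 11 were higher and 4 lower, 7 were higher and 0 lower at an unadjusted p under 0.05 (3.65% and 4.73% of all genes), and 4 did not overlap between the groups on the higher side, where 0.769% of all genes did so. None passed the adjusted threshold. The median difference was 0.44, against −0.01 for all genes. Averaged over the list, the controls read 6.62, 6.54, 6.53, 6.68 and 6.50 and the restraint arrays 7.07, 6.94, 7.01, 6.94 and 6.98, so that every restraint array lay above every control. The difference of these means was 0.42, with 0.40 within slide 3 and 0.44 without control 4.

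Among the repressors of the clock loop, Per1 read 5.92, 5.98, 6.04, 4.57 and 5.89 on the controls and 6.86, 6.69, 7.10, 6.34 and 7.22 under restraint. The groups did not overlap, and control 4 stood well below the other controls. The difference was 1.16 ± 0.25 (SE, adjusted p = 0.116, limma), 0.88 without control 4, and 0.51 by a dimmer probe. Per2 read 6.40 to 7.97 on the controls and 8.02 to 8.43 under restraint, a difference of 0.96 ± 0.28 (SE, adjusted p = 0.272, limma). Cry2 differed by 0.54 and Bhlhe40, which represses E-box genes, by 0.44, both with some overlap between the groups, and Ciart, at the limit of detection, by 0.37. Of the nuclear receptors that form the second loop, Rora, an activator, read 7.30, 7.30, 7.63, 8.12 and 8.29 on the controls and 9.45, 8.99, 9.02, 8.69 and 8.92 under restraint. Its controls on slide 3 were again the higher ones, and the difference was 1.29 ± 0.25 (SE, adjusted p = 0.0855, limma) over all arrays and 0.81 within slide 3. A second Rora probe, detected on 3 restraint arrays, differed by 0.18. Nr1d2, which encodes the repressor REV-ERBβ, lay between 9.11 and 9.44 on the controls and between 9.76 and 10.04 under restraint, a difference of 0.66 ± 0.17 (SE, adjusted p = 0.197, limma) that was 0.71 within slide 3.

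Of 19 genes of the glucocorticoid response tested, 13 were higher and 6 lower, with a median difference of 0.09. At an unadjusted p under 0.05, 2 were higher and 1 lower (3.65% and 4.73% of all genes). The 2 higher were Per1 and Ddit4, an inhibitor of mTORC1 that is induced by glucocorticoids and by energy stress. Ddit4 read 8.28, 8.70, 9.12, 8.01 and 9.08 on the controls and 9.88, 9.13, 9.49, 9.22 and 10.21 under restraint, without overlap (difference 0.95 ± 0.27 SE, adjusted p = 0.25, limma). The textbook responders Fkbp5, a chaperone of the receptor, and Tsc22d3, which encodes the anti-inflammatory protein GILZ, differed by 0.03 and −0.05. Dusp1, a phosphatase of p38 and JNK, differed by −0.40. The receptor gene Nr3c1 differed by −0.36 ± 0.28 (SE), a value of −0.10 without control 4. The list means were 8.15 to 8.44 on the controls and 8.43 to 8.68 under restraint, which overlapped, and their difference was 0.23. Within slide 3, 16 of the 19 genes were higher, with a median of 0.28 and a difference of list means of 0.32.

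NF-κB genes were also higher as a group. Of 20 subunits, inhibitors and targets tested, 17 were higher and 3 lower; 6 were higher and 1 lower at an unadjusted p under 0.05 (3.65% and 4.73% of all genes), and none passed the adjusted threshold. The median difference was 0.36. The list means were 8.03, 8.09, 8.02, 7.95 and 8.13 on the controls and 8.34, 8.40, 8.38, 8.22 and 8.48 under restraint, every restraint array above every control. Their difference was 0.32 over all arrays, 0.32 within slide 3 and 0.29 without control 4.

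Of the subunits, Rel, which encodes c-Rel, read 7.41, 7.74, 7.14, 7.76 and 7.43 on the controls and 8.23, 8.29, 8.38, 8.33 and 7.85 under restraint. The groups did not overlap and differed by 0.72 ± 0.18 (SE, adjusted p = 0.186, limma). Nfkb2, the precursor of p52, differed by 0.75 ± 0.21 (SE, adjusted p = 0.234, limma), with restraint 4 and 5 just inside the range of the controls. Of the inhibitors, Nfkbib (IκBβ) differed by 0.51 and Nfkbie (IκBε) by 0.63, both past the unadjusted threshold, and Nfkbia (IκBα) by 0.57, which was 0.30 without control 4. Of the targets, Icam1, the endothelial and leukocyte adhesion molecule, read 7.94 to 8.41 on the controls and 8.68 to 9.27 under restraint, a difference of 0.81 ± 0.20 (SE, adjusted p = 0.186, limma). Traf1, an adaptor of TNF receptors, differed by 0.82, and by 0.30 within slide 3. Cyld, a deubiquitinase that turns the pathway off, was the 1 gene past the unadjusted threshold on the lower side. Its difference was −0.25, with all restraint arrays, from 10.89 to 11.44, below all controls, from 11.50 to 11.60.

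**Figure D3:**
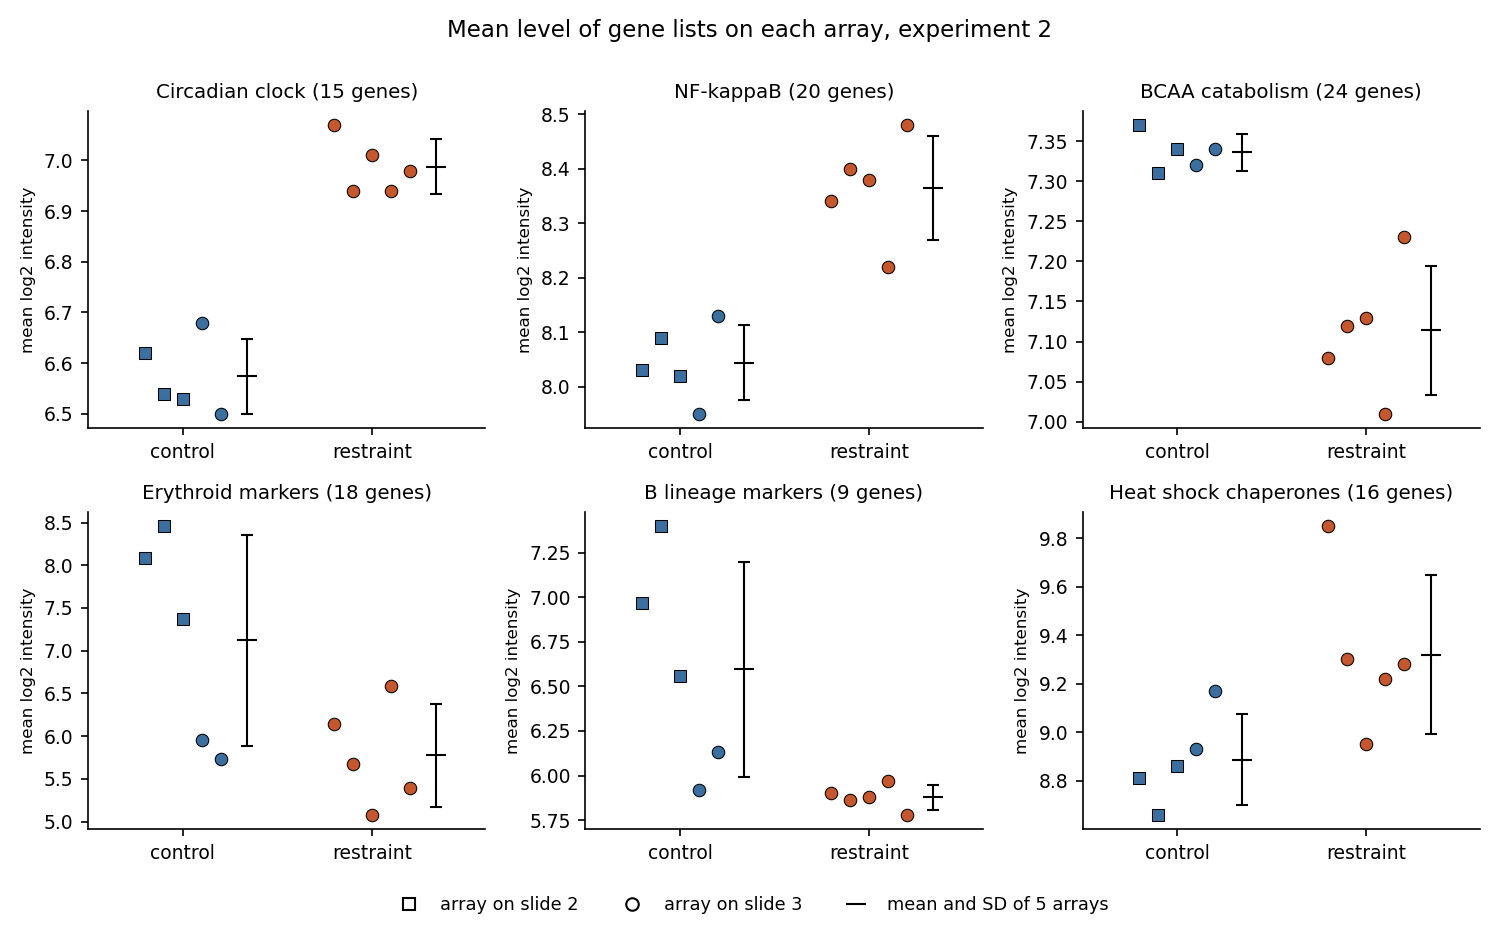
Mean log2 intensity of 6 gene lists on each of the 10 arrays, with squares for slide 2, circles for slide 3, and the mean and SD of the 5 arrays beside each group; BCAA stands for branched-chain amino acid. The clock and NF-κB means lay above and the branched-chain amino acid catabolism means, which include the called gene Ppm1k, below every control. Erythroid and B lineage means were high on the 3 controls of slide 2 and overlapped between the groups on slide 3. The y axes do not start at 0.

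The costimulatory and maturation genes of antigen presenting cells had a median difference of 0.42, with 12 of 17 higher. Past the unadjusted threshold were 5 higher and 1 lower (3.65% and 4.73% of all genes), among them Cd83, which passed the adjusted one. Cd86, a ligand of CD28, read 7.14, 7.30, 7.63, 8.89 and 6.78 on the controls and 8.14 to 8.96 under restraint. Control 4 alone overlapped the restraint arrays, and the difference went from 1.04 to 1.37 without it (adjusted p = 0.29 and 0.0589, limma). Cd80, the other CD28 ligand, differed by 0.67, and Ccr7, the homing receptor of mature dendritic cells, by 0.60, which was 0.15 within slide 3. Tnfsf9, the ligand of 4-1BB, was detected on 0 controls and 3 restraint arrays. The markers of dendritic cells themselves had a median difference of 0.10, with list means of 7.49 to 7.72 on the controls and 7.46 to 8.08 under restraint; their part in the result was not tested. For MHC class II presentation 10 of 12 genes were higher, with a median of 0.25, and 7 within slide 3. H2-Ab1 and H2-Eb1, the β chains of I-A and I-E, differed by 0.56 and 0.87, but by 0.27 and 0.25 within slide 3.

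Of 15 inflammatory cytokines 10 were higher (median 0.23), with 2 higher and 1 lower at an unadjusted p under 0.05 (3.65% and 4.73% of all genes). Tnf, the tumour necrosis factor, lay between 7.74 and 8.13 on the controls and between 8.41 and 8.74 under restraint, without overlap, a difference of 0.66 ± 0.25 (SE, adjusted p = 0.459, limma) that was 0.62 within slide 3. Il1a differed by 1.43 ± 0.62 (SE), with 4.97 to 7.28 on the controls and 5.62 to 8.13 under restraint. Osm, a cytokine of the interleukin 6 family made by neutrophils, was the lower one, at 11.40 to 11.94 and 10.69 to 11.57 (difference −0.56). Il6 itself differed by 0.43 ± 0.33 (SE, adjusted p = 0.78, limma). Of 14 inflammatory chemokines 11 were higher (median 0.28), and none passed the unadjusted threshold. Within slide 3, 8 of the 14 were higher, with a median of 0.12. The difference of list means was 0.27 over all arrays, 0.07 within slide 3 and 0.45 without control 4. Cxcl16, which draws CXCR6-bearing lymphocytes, differed by 1.07 over all arrays and by −0.02 within slide 3, where control 4 read 9.45, the highest of the 10 arrays. Cxcl1, a neutrophil attractant, differed by 0.47 and by 0.20 within slide 3.

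The genes that answer directly to cyclic AMP and to growth signals lay on both sides. Of 24 immediate early and cyclic AMP response genes 12 were higher and 12 lower (median 0.05, and 0.20 within slide 3). At an unadjusted p under 0.05, 4 were higher and 2 lower (3.65% and 4.73% of all genes). Pde4b, the phosphodiesterase that degrades cyclic AMP and is induced by it, read 7.92 to 8.43 on the controls and 8.54 to 9.18 under restraint, a difference of 0.63 ± 0.20 (SE, adjusted p = 0.31, limma). Nr4a2, an orphan nuclear receptor, differed by 0.64, and its relative Nr4a1 by −0.03. Fos, a component of the AP-1 dimer, was on the lower side, with 10.11 to 10.67 on the controls and 9.31 to 10.74 under restraint. The difference of Fos was −0.70 ± 0.24 (SE, adjusted p = 0.407, limma). Among 22 adrenergic receptor and cyclic AMP signalling genes 11 were higher and 11 lower. Crtc2, a CREB coactivator, differed by 0.71, and Prkar2a, a regulatory subunit of protein kinase A, by −1.05, both without overlap. Adrb1 and Adrb3, β-adrenergic receptors, did not pass the detection filter. Of 10 MAP kinase phosphatases 6 were higher and 4 lower (median 0.03). Within slide 3, 3 were higher and 7 lower (median −0.04). Dusp4 and Dusp16 were higher and Dusp1 and Dusp7 lower at an unadjusted p under 0.05 (3.65% and 4.73% of all genes). Dusp7, a cytoplasmic ERK phosphatase named after its value was seen, differed by −0.99. Dusp16, which acts on JNK, differed by 1.01 ± 0.28 (SE, adjusted p = 0.231, limma). In the JAK-STAT feedback list, Pim1, a STAT-induced kinase, differed by 0.93 (0.58 without control 4), and by 0.05 by another probe that was detected on all 10 arrays. Usp18, the interferon-induced inhibitor of its own receptor, differed by −1.01 ± 0.55 (SE), in a type I interferon list with 12 of 24 genes higher and a median of −0.06.

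The study's design names DNA repair and the secretory phenotype of senescent cells. Of 27 homologous recombination and Fanconi genes tested, 20 were lower, 7 of them at an unadjusted p under 0.05 (4.73% of all genes) and none at the adjusted threshold, with a median of −0.11. Within slide 3, 16 were lower. The list means were 6.10 to 6.32 on the controls and 5.89 to 6.17 under restraint, which overlapped. Blm, the Bloom helicase, read 7.32 to 8.37 on the controls and 6.69, 7.58, 7.66, 7.30 and 4.84 under restraint. Of the other Blm probes, 1 differed by −1.01 and the 2 others, detected on 7 and 4 of the 10 arrays, by 0.41 and 0.29. The low value of restraint 5 carried much of the Blm difference of −1.08, which was −0.59 at its nearest to 0 when 1 array was left out. Brca2, a mediator of homologous recombination, differed by −0.68, and by −0.16 by a second probe detected on 3 controls and 1 restraint array. Rad51b, a recombination gene that was close to the background, differed by −0.53 without overlap. In a list of 24 end joining and damage signalling genes with a median of −0.06, Chek2 and Chek1, the checkpoint kinases, differed by −0.53 and −1.16. A dimmer Chek1 probe, detected on 8 of the 10 arrays, differed by 0.34, and a second Chek2 probe, detected on 3, by −0.08. For base excision, mismatch and nucleotide excision repair 20 of 42 genes were higher (median −0.03), and within slide 3 25 were (median 0.07). Of 42 secreted factors, proteases and receptors of the senescence-associated secretory phenotype 30 were higher. Past the unadjusted threshold were 5, all higher (3.65% of all genes), and the median of the list was 0.17. Within slide 3 that median was −0.04, with 20 of 42 genes higher, and without control 4 the difference of list means went from 0.20 to 0.32.

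Cell cycle inhibitors and p53 targets had 15 of 24 genes higher (median 0.09), with 4 higher and 0 lower at an unadjusted p under 0.05, where 3.65% and 4.73% of all genes passed. Gadd45b, a stress sensor that activates p38 signalling, read 5.50, 5.91, 5.82, 4.53 and 5.88 on the controls and 6.67, 6.53, 6.11, 7.14 and 6.49 under restraint. The groups did not overlap and differed by 1.06 ± 0.24 (SE, adjusted p = 0.131, limma). Cdkn1a, which encodes the cell cycle inhibitor p21, differed by 0.57 ± 0.25 (SE, adjusted p = 0.54, limma), with 7.85 to 8.84 on the controls and 8.15 to 9.06 under restraint. Trp53 itself differed by 0.09, and Cdkn2a, which encodes p16 and ARF, did not pass the detection filter. Of 37 genes of S phase and mitosis 24 were lower, with a median of −0.06, whereas within slide 3 22 were higher, with a median of 0.07. Pola1, the catalytic subunit of DNA polymerase α, was detected on 3 controls and 0 restraint arrays and was at least 1.10-fold lower.

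Ppm1k belongs to branched-chain amino acid catabolism, in which 16 of 24 genes were lower and 8 higher. At an unadjusted p under 0.05, 4 were lower and 0 higher (4.73% and 3.65% of all genes), and the median was −0.09. The list means of the controls were nearly alike, 7.37, 7.31, 7.34, 7.32 and 7.34, and those under restraint were 7.08, 7.12, 7.13, 7.01 and 7.23, all below the controls. The difference was −0.22 over all arrays and −0.21 within slide 3. These means include the 4 genes past the unadjusted threshold, among them Ppm1k, which was called in this same comparison. They are therefore no result separate from those genes. Within slide 3 the median over the 24 genes was −0.03, with 11 higher. The 4 genes past the unadjusted threshold were Ppm1k, Aldh6a1, the methylmalonate semialdehyde dehydrogenase of valine breakdown, Acadsb, which dehydrogenates short branched acyl-CoAs, and Mmut, the methylmalonyl-CoA mutase. Aldh6a1 read 7.55, 7.65, 6.68, 8.74 and 6.95 on the controls and 6.95, 5.40, 5.42, 6.89 and 4.37 under restraint, a difference of −1.71 ± 0.42 (SE, adjusted p = 0.167, limma). Acadsb differed by −0.63 and Mmut by −0.77, which was −0.56 without control 4, the highest of the 10 arrays for Mmut at 7.68.

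Heat shock chaperones were higher for 16 of 16 genes, though with a median of 0.22 and 3 at an unadjusted p under 0.05 (3.65% of all genes). Within slide 3, 14 of the 16 were higher, with a median of 0.28. The difference of list means was 0.43 over all arrays and 0.27 within slide 3. Hspb1, a small heat shock protein, read 4.83, 5.29, 5.28, 8.92 and 6.95 on the controls and 8.96, 7.93, 5.88, 8.19 and 8.41 under restraint. The 3 low controls were those of slide 2, and the difference of 1.62 ± 0.65 (SE, adjusted p = 0.49, limma) was −0.06 within slide 3. Hsph1, a nucleotide exchange factor of HSP70, likewise differed by 0.90 overall and by 0.18 within slide 3, whereas Hspe1, the mitochondrial co-chaperonin, differed by 0.44 in both. Of 15 ribosomal protein genes 13 were higher (median 0.21) and of 27 oxidative phosphorylation genes 16 were lower (median −0.07), of which only Uqcrc1, a complex III subunit, passed the unadjusted threshold, on the higher side at 0.45.

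**Figure D4:**
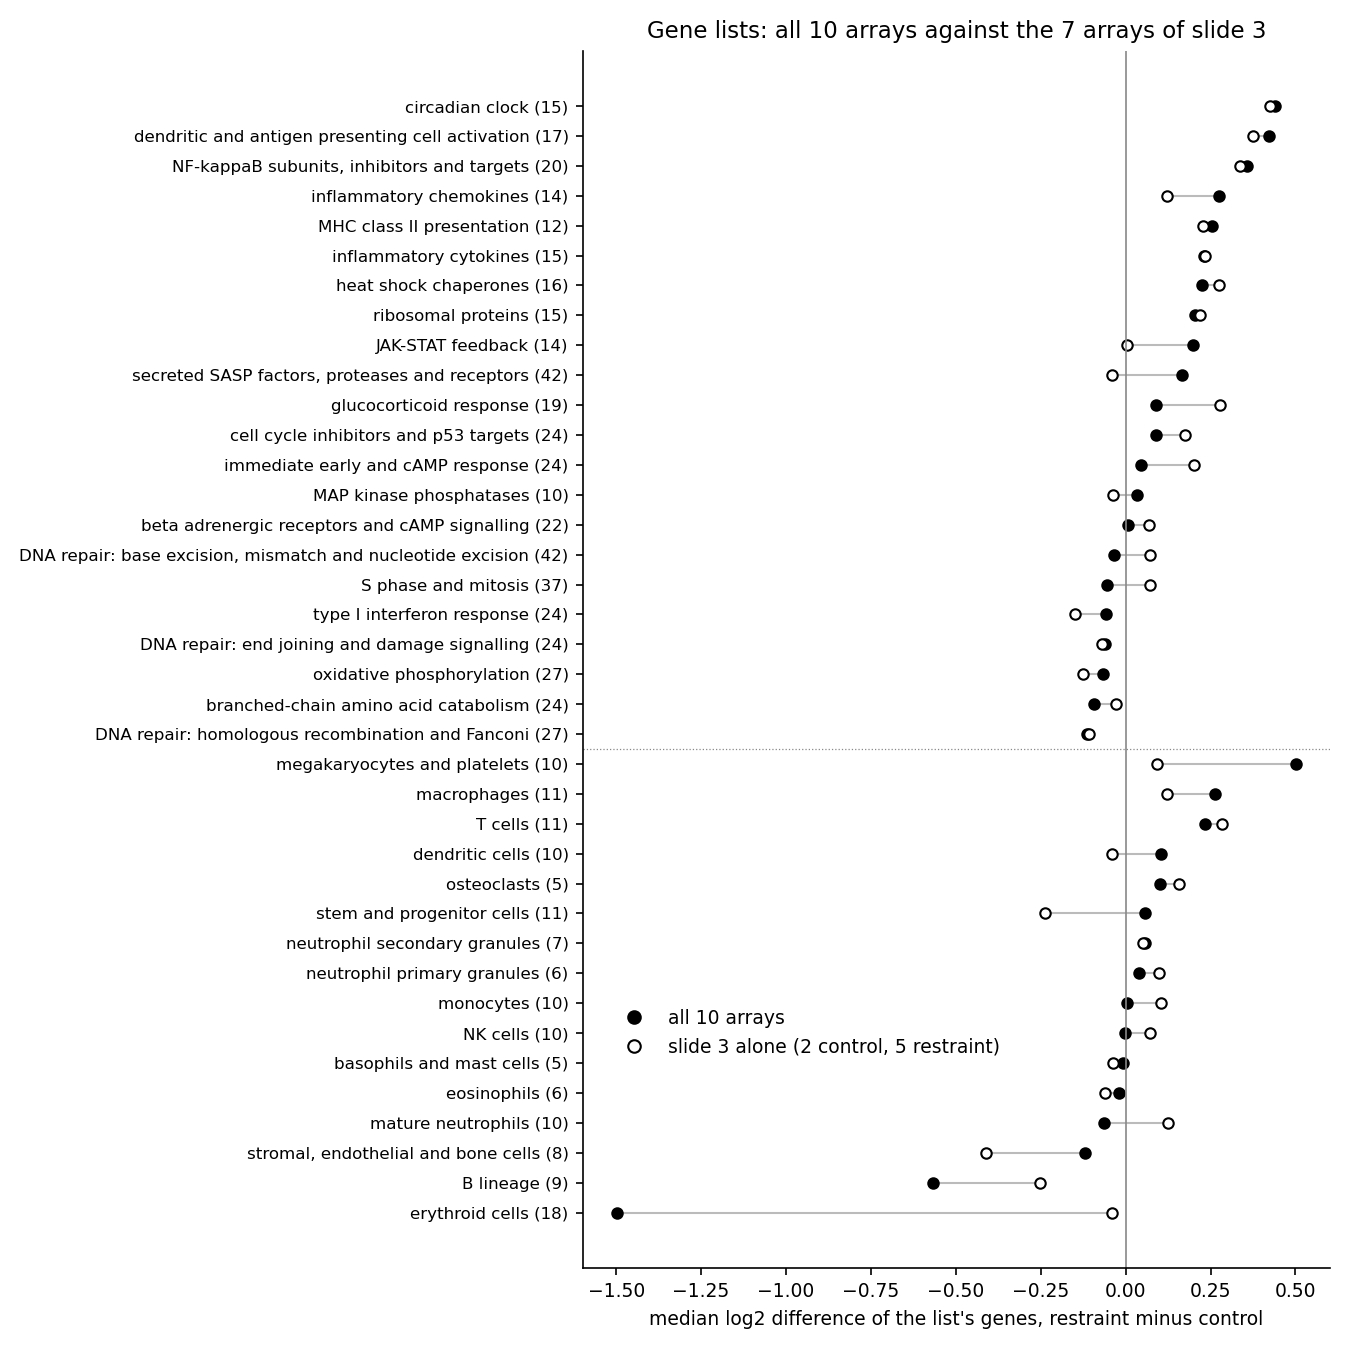
Median log2 difference between restraint and control over the genes of each list, for all 10 arrays (filled) and for the 7 arrays of slide 3 (open), with the number of genes tested in brackets; cell type lists are under the dotted line. The clock, NF-κB and antigen presenting cell activation medians were close in both sets of arrays, while the erythroid median went from −1.50 to −0.04.

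Of the cell type lists, that of erythroid cells differed the most. All 18 erythroid genes tested were lower under restraint, 10 at an unadjusted p under 0.05 (4.73% of all genes) and none at the adjusted threshold. The list means were 8.09, 8.46 and 7.37 on the controls of slide 2, 5.96 and 5.73 on those of slide 3, and 6.14, 5.67, 5.08, 6.59 and 5.39 under restraint. The difference of −1.35 over all arrays was therefore −0.07 within slide 3, where 9 of the 18 genes were higher. Alas2, the first enzyme of heme synthesis in red cells, differed by −2.64 ± 0.98 (SE, adjusted p = 0.454, limma) and by −0.91 within slide 3. Hbb-b1, an adult β-globin, differed by −1.76 and by −0.92. Ermap, a membrane protein of red cells, differed by −1.64 over all arrays and by 0.02 within slide 3.

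B lineage genes had the same order of arrays. Of 9 tested, 8 were lower, 5 at an unadjusted p under 0.05 (4.73% of all genes). The list means were 6.97, 7.40 and 6.56 on the controls of slide 2 and 5.92 and 6.13 on those of slide 3. Under restraint they were 5.78 to 5.97. The difference was −0.71 overall and −0.14 within slide 3. Rag1, a recombinase of immature lymphocytes, read 7.97, 8.78, 6.78, 5.81 and 5.19 on the controls and 4.65 to 5.67 under restraint. Its difference of −1.73 was −0.33 within slide 3. Ebf1, an early B cell transcription factor, held another pattern: it lay between 6.02 and 6.48 on all controls and between 5.52 and 5.82 under restraint. Its difference was −0.57 ± 0.16 (SE, adjusted p = 0.235, limma) and −0.54 within slide 3. Vpreb3, a partner of the pre-B cell receptor, was detected on 2 controls and 0 restraint arrays. Within slide 3 the erythroid and B lineage means differed by −0.07 and −0.14, and those of the clock and NF-κB lists by 0.40 and 0.32. Position and condition cannot be told apart on that slide, so these values do not show where the differences come from. The part of red cell and B lineage RNA in the other results was not tested.

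Over all arrays the granulocyte, monocyte, natural killer and progenitor lists had medians close to 0. They were 0.04 for primary and 0.06 for secondary neutrophil granules, −0.06 for mature neutrophils, 0.01 for monocytes, −0.00191 for natural killer cells and 0.06 for stem and progenitor cells. Within slide 3 the median was −0.24 for stem and progenitor cells and 0.12 for mature neutrophils, both of the opposite sign. No gene of the neutrophil lists passed the unadjusted threshold. Ncr1, an activating receptor of natural killer cells, differed by −0.79, with 6.54 to 7.67 on the controls and 5.62 to 6.57 under restraint. Macrophage genes had a median of 0.26 and 0.12 within slide 3, where C1qc, a complement subunit, differed by 0.63 against 0.89 over all arrays. Platelet genes had a median of 0.50 that was 0.09 within slide 3. T cell genes had a median of 0.23, with 8 of 11 higher and 3 lower. Cd28, the costimulatory receptor, differed by 1.11 ± 0.33 (SE, adjusted p = 0.29, limma) without overlap. It read 7.53 on restraint 3 and 5.57 to 6.44 on the other restraint arrays. Cd3d differed by −0.42 and Lat by 0.59, both with overlap.

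Experiment 1 made the same comparison with 5 restraint and 5 control arrays of its own, which share no array with experiment 2; its controls were all on slide 1. In experiment 1 restraint raised 30 genes (0.278% of those tested) and lowered 5 (0.0463%) at an adjusted p under 0.05. Of the 30, 29 were higher in experiment 2 too, 23 of them at an unadjusted p under 0.05, against 3.65% of all genes. For 11 the restraint arrays lay above all controls, against 0.769% of all genes. All 5 that fell in experiment 1 were lower in experiment 2, 2 of them at an unadjusted p under 0.05. Cd83 was the 1 gene called in both experiments. The median log2 difference of the 30 genes was 0.63 in experiment 2 and 1.23 in experiment 1, and 32 of the 35 genes had the smaller difference in experiment 2. The genes were chosen for their values in experiment 1, a choice that favours the larger value there. Both comparisons also use the same pooled estimate of each probe's spread, so their p-values are not independent.

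Among the genes with similar values in both experiments were Cd274 (1.63 in experiment 2, 1.45 in experiment 1), Rora (1.29 and 1.27), Gadd45b (1.06 and 1.13) and Tmem242 (0.93 and 0.87). Cd83 differed by 1.32 and 1.84, Rel by 0.72 and 1.24, and Hilpda, a lipid droplet protein induced by hypoxia, by 0.92 and 1.39. Other genes were well apart. Nr4a1, an immediate early nuclear receptor, differed by −0.03 and 1.33, Nlrp3, the inflammasome sensor, by 0.62 and 2.13, Jund, an AP-1 subunit, by 0.28 and 1.52, and Il1r2, the decoy receptor of interleukin 1, by 0.16 and 0.96. The phosphodiesterases Pde4b and Pde4a differed by 0.63 and 0.39 against 1.53 and 1.27, and Srsf7, a splicing factor, by −0.32 against −1.51. The test of the difference between experiments called 0 of 10792 genes (0%) at an adjusted p under 0.05, and 355 (3.29%) at an unadjusted p under 0.05 (limma). Of the 35 genes, 17 were among the latter, Nr4a1 with an unadjusted p of 0.000663. Ppm1k, called in experiment 2, differed by −0.43 in experiment 1 (adjusted p of the difference between experiments = 0.9998, limma). Heat shock genes had a median of 0.22 in experiment 2 and −0.06 in experiment 1, and Hsph1 differed by 0.90 and −0.69.

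**Figure D5:**
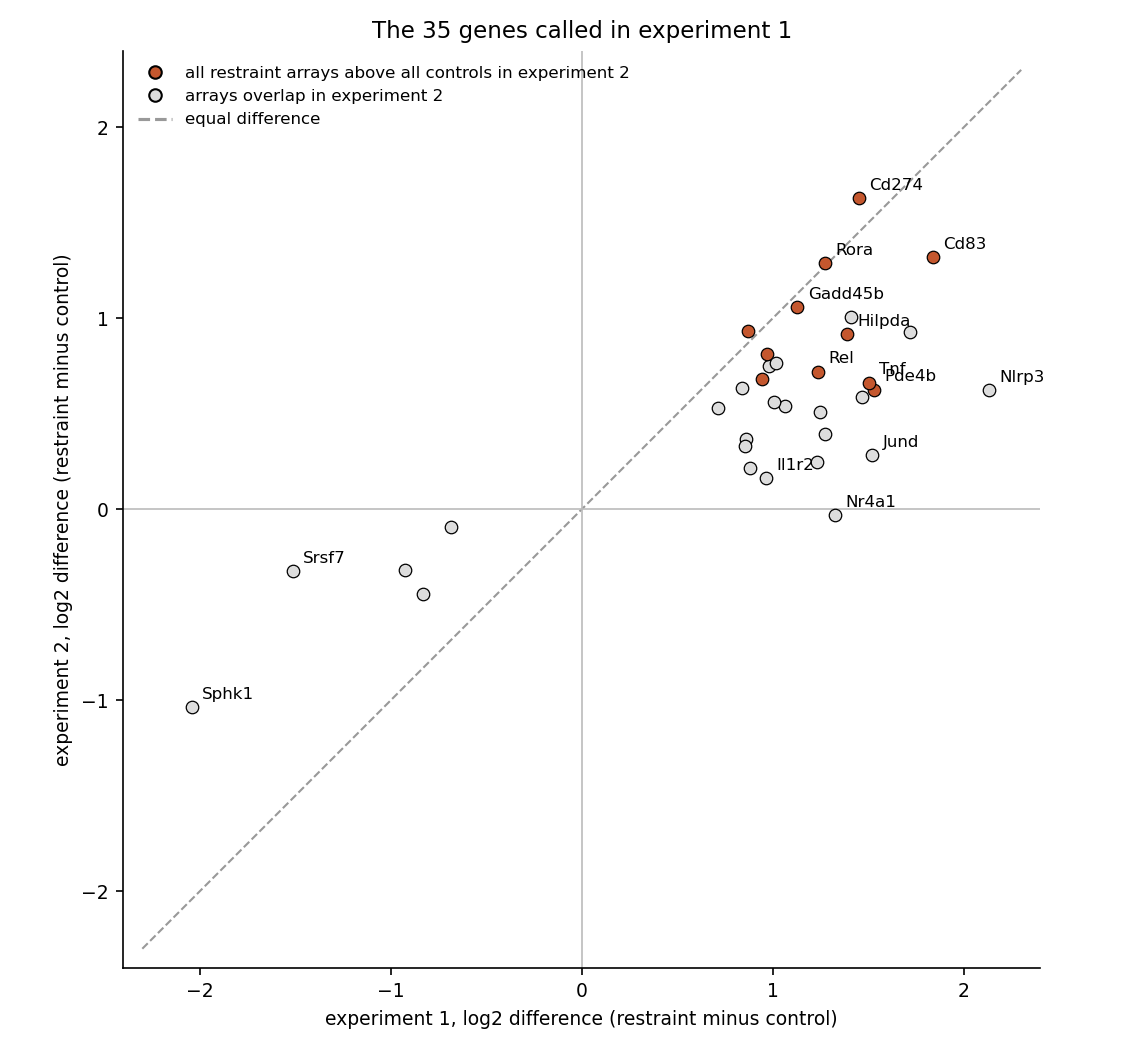
Each point is 1 of the 35 genes called in experiment 1, with its log2 difference between restraint and control in experiment 1 (x axis) and experiment 2 (y axis); the dashed line marks equal differences. All but Nr4a1 had the same sign in both, 32 lay closer to 0 in experiment 2, and the 11 orange genes were higher on every restraint array than on any control of experiment 2.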

How the data were processed

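The members and lists were chosen with earlier results of these data known. GenomeStudio is the tool named in the submitters' processing notes, with no version. Per the file headers, the deposited raw matrix gives a mean bead intensity and a detection p-value for each of 25697 probes and array, and 6 array columns that match no sample were not used. The authors also deposited normalized intensities for 18138 symbols, whose method is not given in the sources used here. Raw intensities of the 26 arrays were background corrected, quantile normalized and put on the log2 scale with limma's neqc (offset 16, negative controls inferred from the detection p-values). Probes were kept if their detection p was below 0.05 on 3 arrays or more (15061), and the brightest stood for each of 10792 genes. Probes were named through RefSeq by Entrez identifier (23788), accession (1148), symbol (99) or synonym (98); the remaining 564 have the name given in the matrix. limma's linear model had 6 groups (20 residual degrees of freedom). A log2 list value is the mean over the list's tested genes. Where all arrays of a group failed detection, the fold is a lower bound against the detection floor. The genes named are the called genes, the 12 of smallest p per direction that were detected on all 5 arrays of a group, the 3 of smallest p per list, the leading calls of experiment 1, and receptors and markers of the study's question. Other list members (Per2, Cry2, Bhlhe40, Ciart, Nfkbia, Nfkbie, Traf1, Cyld, Cd86, Cd80, Ccr7, Mmut, Fkbp5, Tsc22d3, Dusp7, Nr4a1, Nlrp3, Jund and Il1r2) were named after their values were seen. A few list members are counted in their lists but not reported here by name. The number of arrays limits the precision. Replicate numbers did not pair the arrays: the correlations of same-numbered deviations were 0.04, 0.051, −0.004, 0.321 and 0.099. The fit was tested on simulated data. R 4.3.3, limma 3.58.1, the data.table package (version 1.17.8) and matplotlib 3.10.9 were used.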

Additional observations from a re-analysis of the deposited data

Results flagged for a closer look

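In groups of 5 arrays, an array was singled out when its gap to the nearest other array, divided by the range of the group, passed Dixon's critical value of 0.71. Chance alone passes it in about 1 group in 20; here 18 of 268 groups tested did, and 11 of the 18 arrays were control 4. For single genes, control 4 stood apart for Ppm1k (0.782), Per1 (0.897), Pim1 (0.827) and Mmut (0.934). It was the lowest control for the first 3 and the highest for Mmut. Its share of probes detected stood apart as well (0.717). For list means, control 4 was high in antigen presenting cell activation (0.757) and the secretory phenotype (0.754). It was low in β-adrenergic and cyclic AMP signalling (0.713), p53 targets and cell cycle inhibitors (0.775), base excision, mismatch and nucleotide excision repair (0.905), and end joining and damage signalling (0.725).

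The other arrays past the critical value were scattered. Control 5 was high for Fbxo2 (0.832) and control 3 low for Gtf2e1 (0.829). Restraint 5 was high for Igsf9b (0.779) and low for Rel (0.718) and Cyld (0.751). Restraint 1 was high for Dusp1 (0.79), and restraint 3 was low in the mean of the basophil and mast cell markers (0.754). What sets control 4 apart was not tested.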

How the results depend on the processing

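The count of genes past the adjusted threshold, 2, depended on the setting. It was 0 when the 10 arrays were fitted alone, also after separate normalization, with slide as a fixed or random block, and within slide 3, where 470 genes had an unadjusted p under 0.05. It was 4 without a detection filter (3 higher, 1 lower), 4 with median scaling (3 higher, 1 lower, against 1 and 1), 6 without background correction (6 higher, 0 lower), 9 on the authors' normalized values (8 higher, 1 lower) and 68 with array weights (37 higher, 31 lower, Cd83 and Ppm1k among them). When arrays were left out 1 at a time it ran from 0 (without control 1, 2 or 3, or restraint 3) to 4 (without restraint 1, where Fbxo2 was the higher gene and Dcaf12, Mettl21a and Ppm1k the lower ones). It was 1 without restraint 4 or 5, and without restraint 2 it was 2, neither of them Cd83 or Ppm1k. Of the 2 alternatives chosen after seeing the data, leaving out the 2 arrays of fewest detected probes gave 4 and using the controls of slide 2 alone gave 6. Background correction also set the size of the changes: Cd83 rose by 1.32 with it and differed by 0.78 without it. The difference between experiments called 0 genes in all settings but array weights, which called 1.

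With the replicate number as a block among the 10 arrays, 0 genes were called, and the difference between experiments was not fitted that way. For 1 of the 5 controls the restraint array with the closest deviations carried the same number, and the numbers are not treated as pairs. Between 33 and 35 of the 35 genes of experiment 1 kept their sign, and between 20 and 28 of the 22 pathway and 16 cell type lists had a positive mean difference. Of 95 genes followed, 7 changed direction somewhere; the cause was not tested. With slide as a block and within slide 3 these were Cxcl16 (−0.016), Nr4a1 (0.31), Tsc22d3 (0.034), Hspb1 (−0.062) and Ermap (0.018). Median scaling turned Nr4a1 (0.093) and Tsc22d3 (0.0054), averaging probes turned Tsc22d3 (0.18), and array weights turned Fkbp5 (−0.075). Without the 2 arrays of fewest detected probes Fkbp5 was −0.14 and Trp53 −0.084. Leaving out 1 array at a time, Nr4a1 ran from −0.24 to 0.11, Tsc22d3 from −0.091 to 0.0068, Trp53 from −0.037 to 0.22 and Fkbp5 from −0.12 to 0.13. Probes near the background, such as Ppm1k under restraint, limit what these arrays can show.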
